A study of Homo sapiens with 2 samples.

Results

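The purine and thymidylate synthesis genes described here are the 10 enzyme genes PPAT, GART, PFAS, PAICS, ADSL, ATIC, IMPDH2, GMPS, CAD and TYMS, chosen by symbol. All 10 were among the 11619 genes listed in both libraries. The RNA came from NB4, a human line of acute promyelocytic leukemia (APL) with the PML/RARα fusion. One culture was infected with lentivirus for the CRNDE shRNA (sh-CRNDE), which lowers the long non-coding RNA CRNDE, and the other with lentivirus for a non-targeting shRNA (sh-Control). Both were harvested on day 3 after infection, and each group had 1 library, so the differences below could not be set against a spread between replicates and carry no p-values. Of the shRNAs against CRNDE that the study designed, the one in these cells is not named in the sources. Levels are in FPKM, fragments per kilobase of transcript scaled by the mapped fragments of the library, which allows levels of different genes to be set side by side within a library. The change of a gene is the difference of log2(FPKM + 1), sh-CRNDE minus sh-Control, and stands on the log2 scale.

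Cells make purine nucleotides de novo by building the ring, step by step, on phosphoribosyl pyrophosphate (PRPP). PPAT, GART, PFAS, PAICS, ADSL and ATIC carry this route to inosine monophosphate (IMP), from which AMP and GMP branch. CAD opens the parallel route to pyrimidines, and TYMS makes thymidylate, the nucleotide that only DNA uses. Proliferating cells such as leukemic blasts rely on these routes, and antimetabolites such as methotrexate, mercaptopurine and fluorouracil act on them.

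CRNDE was at 5.92 FPKM in sh-Control against 1.85 in sh-CRNDE, or -1.28 on the log2 scale. Of 9 promyelocyte and myeloid marker genes, 8 were listed, with summed FPKM of 1496 in sh-Control and 894 in sh-CRNDE, and ELANE was not among the listed genes. Of 10 markers of other cell types, 3 were listed, with summed FPKM of 6.38 and 6.34, and the highest of them was EPCAM at 4.82 and 4.49 FPKM. The hemoglobin gene HBB, the T-cell gene CD3E and the B-cell gene MS4A1 were not listed. The sum was mostly MPO, at 1135 and 738 FPKM. Of the 8 listed myeloid markers, 7 were lower in sh-CRNDE, from -0.20 (CD33) to -2.23 (PRTN3), whereas CEBPE, a factor of granulocytic maturation, was higher, at 0.748 FPKM in sh-Control against 8.75 in sh-CRNDE, a change of 2.48. The part of these marker differences in the values below was not tested.

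None of the 10 synthesis genes passed 1.5-fold (0 of 10), the threshold the study used. Of all listed genes, 17.2% passed it, 8.38% with a higher and 8.83% with a lower value in sh-CRNDE. Among genes that reached 5 FPKM in both libraries, as all 10 did, 12.5% passed it. A set of 10 genes is too small to set its count of 0 apart from that share. The changes of the 10 genes ran from -0.48 (PFAS) to 0.18 (PPAT), with a median of -0.04. All genes had a median of -0.01 and lay from -0.26 to 0.23 between their 25th and 75th percentiles. The set held 7 genes within that range and 3 below it, namely PFAS, CAD and PAICS. Among genes that reached 5 FPKM in both libraries the range began at -0.21, so that GART also lay below it and 6 lay within. An absolute change no larger than that of PFAS was found in 76.1% of all genes and in 81.4% of genes that reached 5 FPKM in both. In this pair of libraries, the sh-CRNDE value was the higher one for 4 of the genes and the lower one for 6, and these signs held under every scaling and pseudocount tried, except that PPAT and GMPS were at -0.04 and -0.01 after subtraction of the medians of 10 bins of GC content, described below.

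**Figure D1:**
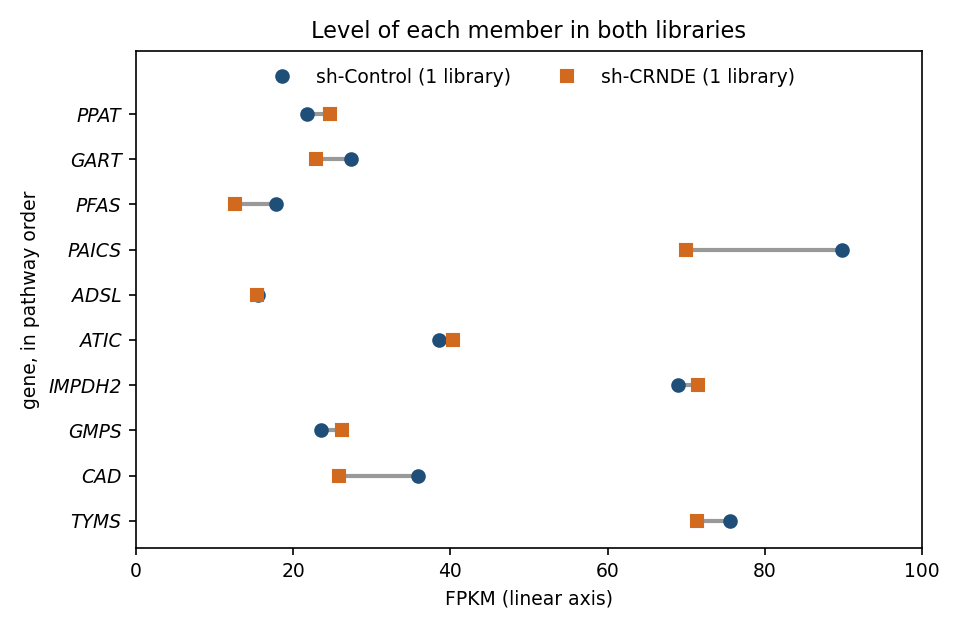
FPKM (x axis, linear, from 0) of the 10 synthesis genes in pathway order (y axis), with 1 point for the sh-Control library, 1 for the sh-CRNDE library and a line joining them. PAICS has the widest gap, from 89.9 to 69.98 FPKM, while the points of ADSL nearly coincide at 15.5 and 15.4 FPKM.

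The enzymes of the IMP route came first. PPAT (ENSG00000128059) encodes the amidotransferase of the committed step, at which PRPP enters the route and at which the end products inhibit it. It was at 21.7 FPKM in sh-Control against 24.7 in sh-CRNDE, or 0.18 on the log2 scale, the highest of the set. PPAT occupies bases 56393362 to 56435615 of chromosome 4, minus strand (GRCh38, GENCODE release 44). PAICS (ENSG00000128050), the carboxylase and SAICAR synthetase of the middle of the route, lies head to head with it on the plus strand, from 56435741 to 56464578. It was at 89.9 FPKM in sh-Control, the highest level of the set in that library, against 69.98 in sh-CRNDE, or -0.36 on the log2 scale. GENCODE holds 7 pseudogenes named for PAICS, of which 0 were listed. The level of PAICS was therefore 4.13 times that of PPAT in sh-Control and 2.83 times in sh-CRNDE, and their changes differed by 0.53 on the log2 scale, with PPAT higher (but -0.04 after subtraction of the medians of 10 bins of GC content) and PAICS lower in sh-CRNDE.

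The start sites of this gene pair face away from each other across a short stretch, which is shown because both genes are read from it and their changes as computed had opposite signs. Between the RefSeq start sites (GRCh38.p14) lie 136 bases, chr4:56435616-56435751, printed 5′ to 3′ on the minus strand, toward PPAT, with matches to the GC box GGGCGG on either strand in capitals. The second stretch, chr4:56435780-56435809 on the same strand, lies beyond the PAICS start and has the E-box CACGTG in capitals, with 176 bases between it and the PPAT start.

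PPAT-PAICS: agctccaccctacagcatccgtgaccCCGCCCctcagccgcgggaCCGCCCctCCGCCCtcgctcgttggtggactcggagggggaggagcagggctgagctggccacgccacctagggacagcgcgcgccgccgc

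PPAT-PAICS E-box: aacggagatttcCACGTGcagcaaatacag

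The first stretch holds 3 GC boxes, and the E-box of the second falls in the 300-base windows of both genes (most of each lies before the start). RefSeq windows were at hand for 8 of the 10 genes, 12 windows in all because GART and PAICS have several starts. ADSL and IMPDH2 had no window. The E-box was found in 3 of the 12 windows, those of PPAT, PAICS and ATIC, against 7.26% of all 35116 windows and 10.8% of the 4973 windows of genes reaching 5 FPKM in both libraries. The PPAT and PAICS windows share the same E-box, so these are not separate matches. A GC box was found in 8 of the 12 windows, against 45.0% of all windows and 69.7% of those of the expressed genes. The PPAT window and a PAICS window overlap and share the GC boxes printed above, so these too are not separate matches. The CCAAT box, searched as CCAAT on both strands, was found in 4 windows, of GART and CAD, against 34.6% and 36.8%. Among them, GART windows that start at 33542840 and 33542843 overlap nearly fully, so their matches may be the same. An E2F-type match, TTTNGCGC on either strand, was found in 1 window, of GART, against 1.79% and 3.74%. Of the genes with an E-box, ATIC and PPAT had slightly higher and PAICS lower FPKM in sh-CRNDE as computed. After subtraction of the medians of 10 bins of GC content, described below, ATIC was at 0.04, PPAT at -0.04 and PAICS at -0.51. A part of the motif in these values was not tested.

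GART (ENSG00000159131, chromosome 21, 33503931 to 33543491, minus strand) encodes a protein with several activities of the early route, among them the first formyl transfer from folate. It was at 27.4 FPKM in sh-Control against 22.8 in sh-CRNDE, or -0.25 on the log2 scale. Its start is 453 bases from that of SON on the opposite strand, which was at 41.2 and 37.6 FPKM, a change of -0.13. PFAS (ENSG00000178921, chromosome 17, 8247618 to 8270491, plus strand), the glutamine-dependent FGAM synthase, was at 17.9 FPKM in sh-Control against 12.5 in sh-CRNDE. Its change of -0.48 was the lowest of the set, and its sh-CRNDE level was 0.702 times its sh-Control level. A lower change was found in 12.2% of all genes. CTC1, whose start is 440 bases from that of PFAS on the opposite strand, was at 1.38 and 1.36 FPKM.

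ADSL (ENSG00000239900, chromosome 22, 40346461 to 40390463), the lyase that acts both late in the IMP route and in the AMP branch, barely differed, at 15.5 FPKM in sh-Control against 15.4 in sh-CRNDE. In GENCODE, 11.1% of its exonic bases also lie in exons of an unlisted gene on the same strand, ENSG00000284431. The values do not show how reads of that part were assigned. ATIC (ENSG00000138363, chromosome 2, 215311956 to 215349773), which carries the second formyl transfer from folate and closes the ring to IMP, was at 38.6 FPKM in sh-Control against 40.3 in sh-CRNDE, or 0.06 on the log2 scale. Within the route, PFAS, PAICS and GART had the lowest changes, while the first enzyme, PPAT, and the last, ATIC, were slightly higher in sh-CRNDE as computed. The summed FPKM of the 6 enzymes was 210.9 in sh-Control and 185.8 in sh-CRNDE, and PAICS had the widest single gap.

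IMPDH2 (ENSG00000178035, chromosome 3, 49024325 to 49029447), the dehydrogenase that limits GMP synthesis, was at 68.9 FPKM in sh-Control against 71.5 in sh-CRNDE, or 0.05 on the log2 scale. GMPS (ENSG00000163655, chromosome 3, 155870650 to 155944020), which completes GMP, was at 23.6 and 26.2 FPKM, a change of 0.15. As computed, both genes of the GMP branch were slightly higher in sh-CRNDE, by less than the 75th percentile of all genes. The pseudogene GMPSP1 was listed at 1.12 and 1.15 FPKM, far below GMPS. In GENCODE, 32.8% of the exonic bases of IMPDH2 also lie in exons of an unlisted gene on the same strand, ENSG00000290315, and the values do not show how such reads were assigned.

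CAD (ENSG00000084774, chromosome 2, 27217369 to 27243943, plus strand) encodes the large multifunctional protein that starts pyrimidine synthesis. It was at 35.8 FPKM in sh-Control against 25.8 in sh-CRNDE, or -0.46 on the log2 scale, next to that of PFAS. The 120 bases before its start, chr2:27217249-27217368 (GRCh38.p14, plus strand), are shown because CAD had the largest difference outside the purine route. They have a GC content of 76.7% and 2 GC boxes, in capitals.

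CAD: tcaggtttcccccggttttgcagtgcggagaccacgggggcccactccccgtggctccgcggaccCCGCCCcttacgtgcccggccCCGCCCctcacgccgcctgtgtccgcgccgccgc

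TYMS (ENSG00000176890, chromosome 18, 657653 to 673578, plus strand), the thymidylate synthase that fluorouracil targets, was at 75.5 FPKM in sh-Control against 71.4 in sh-CRNDE, or -0.08 on the log2 scale. Of its 2421 exonic bases in GENCODE, 967 (39.9%) also lie in exons of ENOSF1 on the opposite strand. The library kit does not mark strand, so reads of that part cannot be told apart, but ENOSF1 was at 1.39 FPKM in sh-Control against 1.46 in sh-CRNDE, far below TYMS. The antisense transcript TYMSOS, which shares 193 exonic bases with TYMS, was at 0.743 and 0.315 FPKM.

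In both libraries the synthesis genes stood high among all genes. The lowest of them, ADSL in sh-Control and PFAS in sh-CRNDE, exceeded 83.6% and 79.4% of the listed genes, and the median level of the set was 31.6 FPKM in sh-Control and 26.0 in sh-CRNDE, where all genes had medians of 3.95 and 3.89. The highest member was 5.78 times the lowest in sh-Control and 5.70 times in sh-CRNDE. In sh-Control the order was PAICS, TYMS, IMPDH2, ATIC, CAD, GART, GMPS, PPAT, PFAS and ADSL. In sh-CRNDE it was IMPDH2, TYMS, PAICS, ATIC, GMPS, CAD, PPAT, GART, ADSL and PFAS, so that TYMS and ATIC kept their places. The leading genes IMPDH2, TYMS and PAICS lay between 69.98 and 71.5 FPKM in sh-CRNDE, and without replicates their order there cannot be set against a spread.

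**Figure D2:**
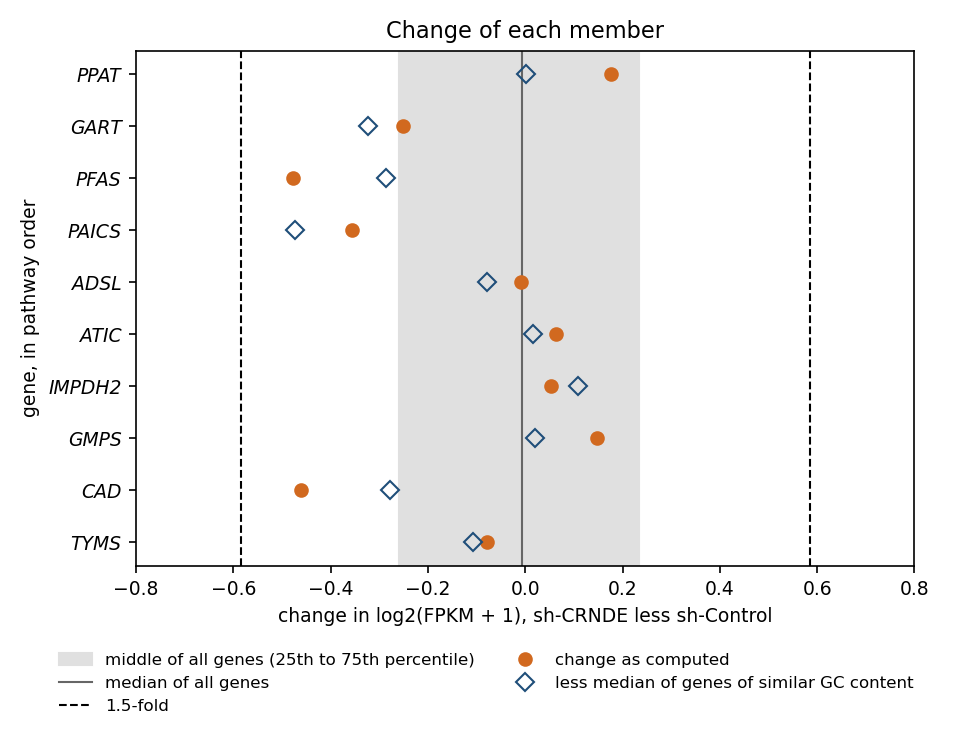
Change in log2(FPKM + 1), sh-CRNDE less sh-Control (x axis), of the 10 synthesis genes in pathway order (y axis). Filled circles are the changes as computed, open diamonds the same after subtraction of the median of genes with like GC content (20 bins), the band the 25th to 75th percentile of all genes, and the dashed lines 1.5-fold; all points lie between the dashed lines, and PFAS, CAD and PAICS lie left of the band.

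The changes were next set beside the base composition of the transcripts, a property that the choice of genes did not use. Across the 4523 genes reaching 5 FPKM in both libraries and an annotated transcript, the change was lower at higher GC content (Pearson r = -0.38, Spearman rho = -0.48, across genes, which are not independent replicates). Split into 10 bins of GC content, the median change went from 0.22 in the bin of lowest GC content to -0.34 in the bin of highest. The GC content of the synthesis genes ran from 37.9% (PPAT) to 58.2% (PFAS), and over these 10 genes, which share both libraries, r was -0.64 and rho -0.66. PPAT and GMPS, with GC contents of 37.9% and 40.5%, had the highest changes of the set, and CAD and PFAS, with 57.7% and 58.2%, the lowest.

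Among the genes of their own GC bin, PPAT and GMPS stood near the middle, with lower changes in 44.2% and 48.9% of the bin. PFAS and CAD, in the same bin, were below its 25th percentile of -0.38, and 14.2% and 15.5% of the bin had lower changes. PAICS and GART stood lower in their own bins than in the whole table. PAICS has a GC content of 41.9%, and the median change of its bin was 0.15 against its own -0.36, with 7.52% of the 452 genes of the bin lower. GART has a GC content of 46.1%, and 12.8% of its bin had lower changes. The subtraction of the median of genes with like GC content used finer bins, 20, set on genes reaching 1 FPKM in both libraries, and after it PAICS had the lowest value of the set (-0.47), followed by GART (-0.32), PFAS (-0.29) and CAD (-0.28). The same subtraction left PPAT at 0.00077, GMPS at 0.02 and IMPDH2 at 0.11. With the medians of the 10 bins subtracted instead, a choice made after seeing the data, PAICS was again lowest (-0.51), and PPAT and GMPS were at -0.04 and -0.01. These subtractions set the change of a gene beside that of genes with like GC content. The part of base composition in these values was not tested.

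**Figure D3:**
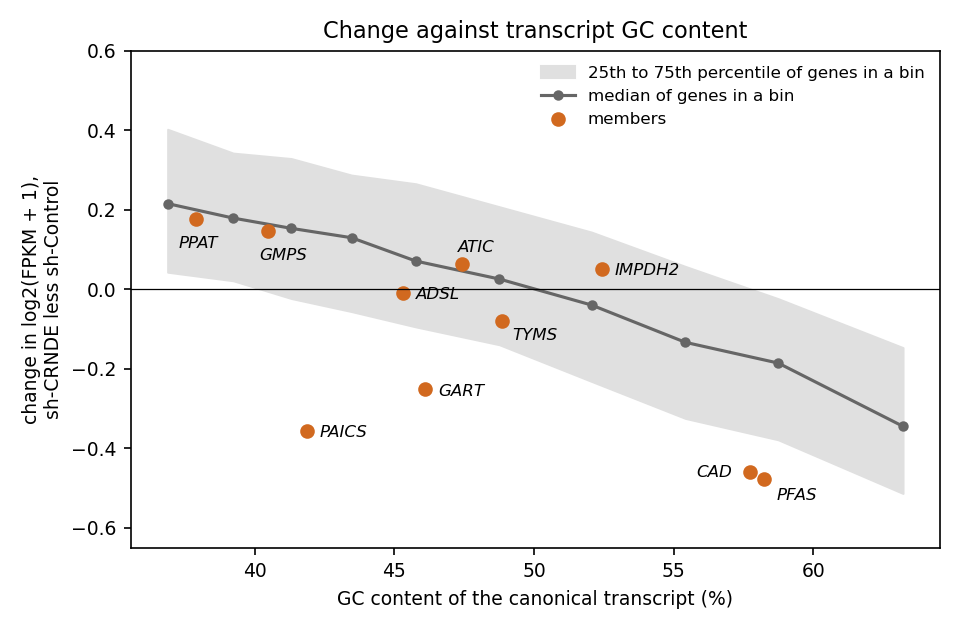
Change in log2(FPKM + 1), sh-CRNDE less sh-Control (y axis), against the GC content of the canonical transcript in percent (x axis). Grey points joined by a line are medians of 10 bins of genes reaching 5 FPKM in both libraries, the band their 25th to 75th percentiles, and the named points the 10 synthesis genes; PAICS, GART, CAD and PFAS lie below the band.

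The surrounding pathways were described by 7 lists of enzymes chosen by role, with 85 genes, of which 69 were listed and 16 were not. Of the 69 genes, 9 (13.0%) passed 1.5-fold, 4 higher and 5 lower in sh-CRNDE, against 17.2% of all genes, and their median change was -0.01. The share was thus no higher than the background. The counts of the single lists below are to be read beside the same 17.2%, and each rests on few genes.

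Upstream, PRPP is made by the PRPS synthetases from ribose phosphate. Of 8 genes of PRPP supply, 1 (12.5%) passed 1.5-fold, and the median change was 0.01. PRPS2 was lower, at 5.87 FPKM in sh-Control against 3.57 in sh-CRNDE (-0.59), just past the threshold, which it missed after centring (-0.58) and after quantile normalization (-0.58). PRPS1, the more abundant synthetase, was at 23.2 and 29.6 FPKM (0.34), the highest change of the list.

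Of 9 listed genes of the AMP and GMP branches outside the 10, 1 passed in each direction (22.2% in all), and the median change was -0.18. AK6, an adenylate kinase, was at 14.2 FPKM in sh-Control against 24.1 in sh-CRNDE (0.73), and was no longer past 1.5-fold at similar GC content (0.52). AK6 shares 508 of its exonic bases (23.7%) with TAF9 on the same strand, so its value is uncertain. AK4, a mitochondrial adenylate kinase, was at 7.35 and 4.10 FPKM (-0.71). In purine salvage and breakdown, 0 of 11 listed genes passed, with a median of 0.10. HPRT1, which returns hypoxanthine and guanine to the nucleotide pool and so bypasses the route de novo, had the lowest change, -0.57, with 52.3 FPKM in sh-Control against 34.8 in sh-CRNDE. It was just short of 1.5-fold as computed and after centring (-0.57), and past it under the other scalings and pseudocounts, at -0.62 after quantile normalization and -0.70 at similar GC content. ADA2, listed as CECR1, had the highest change of that list, at 0.719 and 1.08 FPKM (0.27).

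Of 8 listed genes of pyrimidine synthesis outside CAD, 0 passed, with a median of 0.00. CMPK1, the UMP and CMP kinase, was highest at 37.9 FPKM in sh-Control against 48.4 in sh-CRNDE (0.34). NME2, a nucleoside diphosphate kinase, was lowest at 105.6 and 72.5 FPKM (-0.53), and shares 603 exonic bases with the readthrough gene NME1-NME2, which was listed at 100.8 and 34.6 FPKM, so that the split of reads between them is uncertain. In pyrimidine salvage and breakdown, 1 of 6 listed genes (16.7%) passed, and the median change was -0.24, the farthest from 0 of the 7 lists. UCKL1, a uridine kinase-like gene, was at 7.70 FPKM in sh-Control against 4.58 in sh-CRNDE (-0.64), and at -0.41 at similar GC content. DPYD, which starts pyrimidine breakdown, had the highest change of that list (0.25).

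Around TYMS, 2 of 11 listed genes (18.2%) of thymidylate and deoxynucleotide supply passed, near the 17.2% of all genes. Both were higher in sh-CRNDE, the direction in which 8.38% of all genes passed. RRM2B, the small ribonucleotide reductase subunit known as a p53 target, was at 2.94 FPKM in sh-Control against 7.04 in sh-CRNDE, or 1.03 on the log2 scale. SAMHD1, which degrades deoxynucleotides, was at 3.44 and 5.90 FPKM, a change of 0.64 that was 0.57 and short of 1.5-fold at similar GC content. TK1, the thymidine kinase of the salvage route, had the lowest change, at 16.6 FPKM in sh-Control against 10.96 in sh-CRNDE (-0.55), which came to -0.60 with a pseudocount of 0.01 or after rescaling to TPM, past 1.5-fold, and to -0.33 at similar GC content.

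Folate supplies the carbon units that GART, ATIC and TYMS use. Of 16 listed genes of this supply, 3 (18.8%) passed 1.5-fold, 1 higher and 2 lower, near the 17.2% of all genes, and the median change was -0.01. SLC19A1, the reduced folate carrier through which methotrexate enters cells, was at 8.58 FPKM in sh-Control against 3.43 in sh-CRNDE, or -1.11 on the log2 scale. MTHFD2, the mitochondrial folate dehydrogenase, was at 46.5 and 24.3 FPKM, a change of -0.91. Both stayed past 1.5-fold under every scaling and pseudocount tried. On the opposite strand, COL18A1 shares 13.9% of the exonic bases of SLC19A1 and was at 1.11 and 0.848 FPKM. SLC4A5, an unlisted gene on the opposite strand, shares 11.6% of those of MTHFD2. GENCODE also holds 7 pseudogenes named for MTHFD2, of which 0 were listed. How reads of these parts were assigned is not shown by the values. GCSH, a protein of the glycine cleavage system, was at 6.01 FPKM in sh-Control against 21.8 in sh-CRNDE, or 1.70 on the log2 scale. GENCODE holds 6 pseudogenes named for GCSH, and the listed one, GCSHP5, was at 12.8 and 21.0 FPKM, so the value of GCSH is uncertain. Of the 10 genes, GART, ATIC and TYMS use folate, and their changes lay between -0.25 and 0.06.

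**Figure D4:**
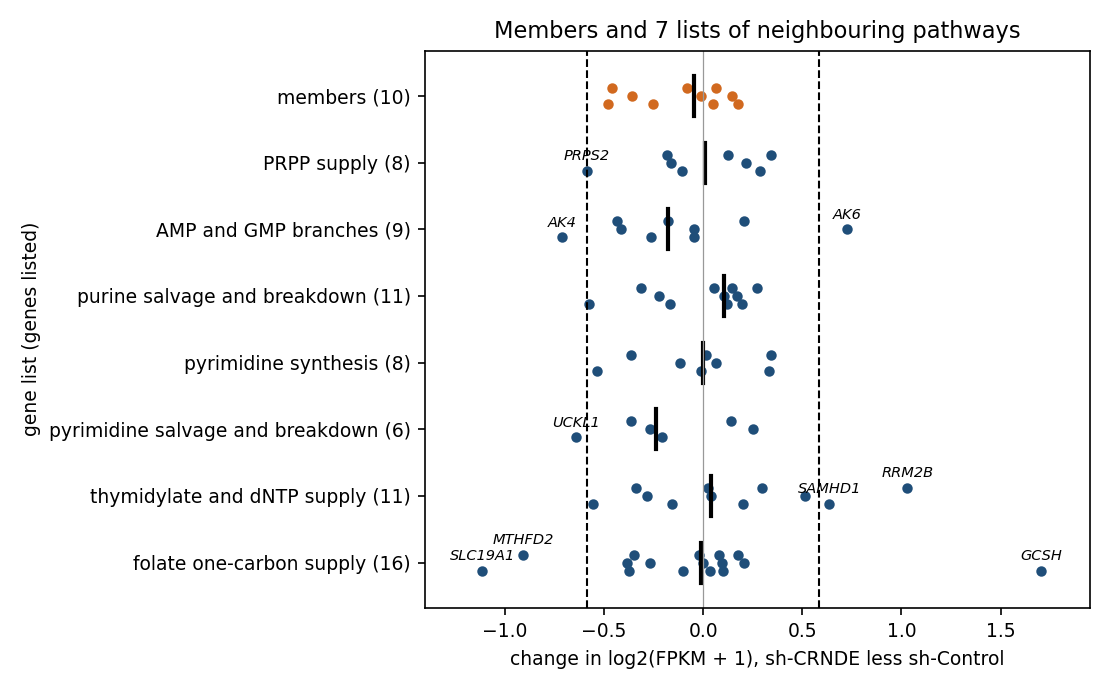
Change in log2(FPKM + 1), sh-CRNDE less sh-Control (x axis), of the 10 synthesis genes and of 7 lists of neighbouring pathways (y axis, with the number of listed genes), 1 point per gene with the median as a black bar. Dashed lines mark 1.5-fold and genes past it are named; none of the synthesis genes is past it, and SLC19A1 (-1.11) and GCSH (1.70) are the outermost of the lists.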

How the data were processed

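The RNA sequencing of NB4 cells comprised 1 library of each group. Libraries were made by the authors with the TruSeq RNA Sample Prep Kit v2 and sequenced on an Illumina MiSeq. Their processing notes name fastp 0.20.0, HISAT2 2.0.4, StringTie 1.2.3 and GRCh38, and the annotation release is not given in the sources used here. The deposited files of the authors hold gene-level FPKM, and every listed gene reaches 0.500 FPKM in at least one library. The depth is unknown, since no read counts are given. Of the 300 lowest values per library, multiplied by transcript length, 25.0% (sh-CRNDE) and 28.0% (sh-Control) came within 0.1 of a whole multiple of the best-fitting unit. The precision of a value can therefore not be stated.

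From the deposited FPKM, log2(FPKM + 1) was computed with numpy 2.4.6, pandas 2.3.3 and Python 3.11.15. Plots were made in matplotlib 3.10.9. The computations were tested on simulated data. All genes were kept, matched between libraries by Ensembl identifier, and called when past 1.5-fold (0.585 on the log2 scale). Coordinates, exon overlaps, and length and GC content of canonical transcripts come from GENCODE release 44 on GRCh38, in which 11508 of the 11619 identifiers were found. Promoter sequences come from RefSeq (GRCh38.p14). As an alternative, the median change of 20 bins of GC content, set on genes reaching 1 FPKM in both libraries, was subtracted.

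The 10 genes and the pathway lists were chosen with earlier results of these data known. Named are the 10 genes, CRNDE, cell type markers, some of the genes that overlap one of the 10 or start close to it, pseudogenes or overlapping genes of named genes, and of each list the genes past 1.5-fold and those with the highest and lowest change.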

Additional observations from a re-analysis of the deposited data

How the results depend on the processing

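The alternatives were pseudocounts of 0.1 and 0.01, centring, quantile normalization, TPM computed without genes of mitochondrial, small or ribosomal RNAs, subtraction of the median change at similar GC content, a threshold of 2-fold, and filters at 1 and 5 FPKM. Subtraction over 10 bins of GC content was added for the synthesis genes after seeing the data. Under each of them 0 of the 10 synthesis genes were past the threshold, 4 were higher and 6 lower under every scaling and pseudocount but the added one, which put PPAT and GMPS just below 0, and their median change stayed between -0.09 and -0.04. The change farthest from 0 was that of PFAS, CAD or PAICS, between -0.52 and -0.47. Of the 69 genes of the surrounding pathways, 9 were past 1.5-fold, 14 with a pseudocount of 0.01, 3 at 2-fold, and 3 of the 47 reaching 5 FPKM in both libraries. For all genes, 2000 were past 1.5-fold, 3301 and 3481 with pseudocounts of 0.1 and 0.01, and 3133 after rescaling to TPM; 774 were past 2-fold. With filters at 1 and 5 FPKM, 1239 of 8773 (14.1%) and 567 of 4538 genes (12.5%) were past 1.5-fold. The cause of these differences was not tested. The pseudocount stayed at 1 after rescaling to TPM, in which values are larger than in FPKM. Of 474 single-gene values recomputed under the other alternatives, for the 10 genes and the 69 pathway genes, 5 (of 4 genes) fell short of 1.5-fold where the value as computed passed it, and 15 (of 5 genes, HPRT1 and TK1 among them) passed it where that value did not. Of the 69 pathway genes, 16 had another sign under at least 1 alternative, 13 of them at similar GC content, and none of the 16 was past 1.5-fold as computed. No paired analysis was possible because each group had 1 library. MT-RNR2 made up 16.2% of the FPKM sum in sh-CRNDE and is listed at 0 in sh-Control, a difference that the TPM rescaling removes.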
